A study of Mus musculus with 6 samples.

Results

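Complement is a protein cascade that tags microbes and dying cells for uptake and calls in immune cells. It is started by the pattern-recognition molecule C1q (classical pathway), by lectins, or by spontaneous activation of C3 with factor B and properdin (alternative pathway), and all routes converge on the cleavage of C3. The liver supplies most complement of the blood, while macrophages are a main source of C1q and of properdin in tissues and sense the cleavage fragments through the receptors C3aR and C5aR1.

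The genes described here are 9 complement components and receptors, chosen by name: C1qa, C1qb, C1qc, C4b, C3, Cfb, Cfp, C3ar1 and C5ar1. All 9 were found by their Entrez identifiers among the 14574 genes listed in any library, and all 9 were listed in each of the 6 libraries. They were measured by RNA sequencing in macrophages grown from the femoral marrow of mice aged 6 to 10 weeks, either Cd28 KO or C57BL/6J (WT). Cells of both groups were cultured for 7 days with 10% serum and 25 ng/ml human M-CSF, a growth factor that drives marrow cells toward macrophages, and received no other treatment. Each genotype had 3 libraries, numbered 1 to 3 in the titles. Neither the targeted part of Cd28 nor whether each number was a separate mouse is given in the sources used here, so p-values measure only the spread between these samples. That spread may be technical in part, but the replicate 3 libraries differed from the others in sex by their Y-linked genes, given below.

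Values are FPKM (sequenced fragments relative to transcript length in kilobases and to the mapped fragments of the library), so levels of different genes can be compared per length. A library listed 12768 to 13327 genes, its FPKM summed to 510937 to 576313, and the number of reads is unknown. Cd28 itself stood at 25.7, 24.2 and 26.9 FPKM in Cd28 KO replicates 1 to 3 and at 38.2, 30.1 and 51.1 FPKM in WT (exact two-sided permutation p = 0.1, the smallest that 3 against 3 can give). All 8 macrophage markers examined, among them Csf1r and Adgre1, were listed in every library, and their sum was 14654 to 16779 FPKM in the Cd28 KO libraries and 14015 to 14687 FPKM in the WT ones. The replicate 3 library of each genotype was the only one of its group to list the Y-linked genes Eif2s3y, Ddx3y, Kdm5d and Uty. Eif2s3y stood at 39.1 FPKM in Cd28 KO replicate 3 and at 31.8 FPKM in WT replicate 3. Replicate 3 thus held male cells in both genotypes and was not a technical repeat of the other libraries. The part of sex in the replicate 3 values of the complement genes, X-linked Cfp among them, was not tested. Deviations from the group mean went together in same-numbered libraries, so a fit with a term for the replicate number (the replicate block) is given beside the one without it.

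Promoters are shown for C1qb and C1qc, neighbouring genes and the most abundant complement genes here, and for Cfp, which had the largest log2(FPKM + 1) difference between genotypes among the 7 members tested. The RefSeq table (GRCm38.p6) held a promoter for 6 of the 9 members, and those of C1qa, C4b and Cfb were not used here. The 250 bases before the start site follow, 5′ to 3′ on the minus strand, on which all 3 of these genes lie. The start site used for C1qc lies inside the gene coordinates used elsewhere here, which end at 136892936. The last bases of its window therefore fall within the gene by those coordinates. Capitals mark a match to GGAAGT, an ETS core of the kind bound by PU.1, on either strand.
C1qb, chr4:136886201-136886450: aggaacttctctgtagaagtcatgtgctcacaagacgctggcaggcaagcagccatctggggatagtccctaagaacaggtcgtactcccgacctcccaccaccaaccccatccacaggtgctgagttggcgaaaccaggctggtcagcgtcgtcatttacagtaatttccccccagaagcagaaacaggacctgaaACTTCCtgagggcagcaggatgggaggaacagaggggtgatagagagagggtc
C1qc, chr4:136892915-136893164: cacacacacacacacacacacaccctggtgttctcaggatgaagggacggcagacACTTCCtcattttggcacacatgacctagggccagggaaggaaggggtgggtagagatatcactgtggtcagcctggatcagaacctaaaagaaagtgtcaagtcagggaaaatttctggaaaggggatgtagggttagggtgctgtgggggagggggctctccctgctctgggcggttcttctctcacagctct
Cfp, chrX:20931556-20931805: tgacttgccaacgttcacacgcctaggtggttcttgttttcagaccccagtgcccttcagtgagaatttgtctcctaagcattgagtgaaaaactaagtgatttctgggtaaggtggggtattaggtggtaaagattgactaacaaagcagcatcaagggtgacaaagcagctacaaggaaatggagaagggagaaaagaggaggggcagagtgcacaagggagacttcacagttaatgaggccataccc

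Both C1q promoters held GGAAGT once on the strand opposite to the gene, at -53 to -48 from the start in C1qb and at -195 to -190 in C1qc. The C5ar1 promoter held it at 2 places, and those of C3, C3ar1 and Cfp did not hold these letters. Among the upstream windows of all 27025 genes in the table, 22.2% of genes had a window with GGAAGT. The other motifs searched on both strands were TTGCNNAA (C/EBP), GAAANNGAA (a repeat of the interferon response type) and TGCTGAC (MAF half-site), present for 10.8%, 8.18% and 4.31% of genes. Of these, TTGCNNAA was found once, at -45 to -38 of C3, GAAANNGAA once, at -66 to -58 of C5ar1, and TGCTGAC in none of the 6 promoters. These matches describe the letters only, and overlaps between the motifs did not occur in the windows shown.

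The members differed widely in level, from C1qb at 2173 FPKM over the 6 libraries to C4b at 0.122 FPKM. The order was C1qb, C1qc (1485 FPKM), C1qa (704), C3ar1 (241), C5ar1 (238), Cfp (120), C3 (12.6), Cfb (0.613) and C4b. For every step of this order except C3ar1 to C5ar1, the lowest library of the higher gene lay above the highest library of the next. C3ar1 exceeded C5ar1 in 5 of the 6 libraries, by a ratio of means of 1.01, and the ranges of these receptors overlapped. C1qb ranked between 19th and 23rd of all genes in each library, and C1qc between 33rd and 43rd.

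**Figure D1:**
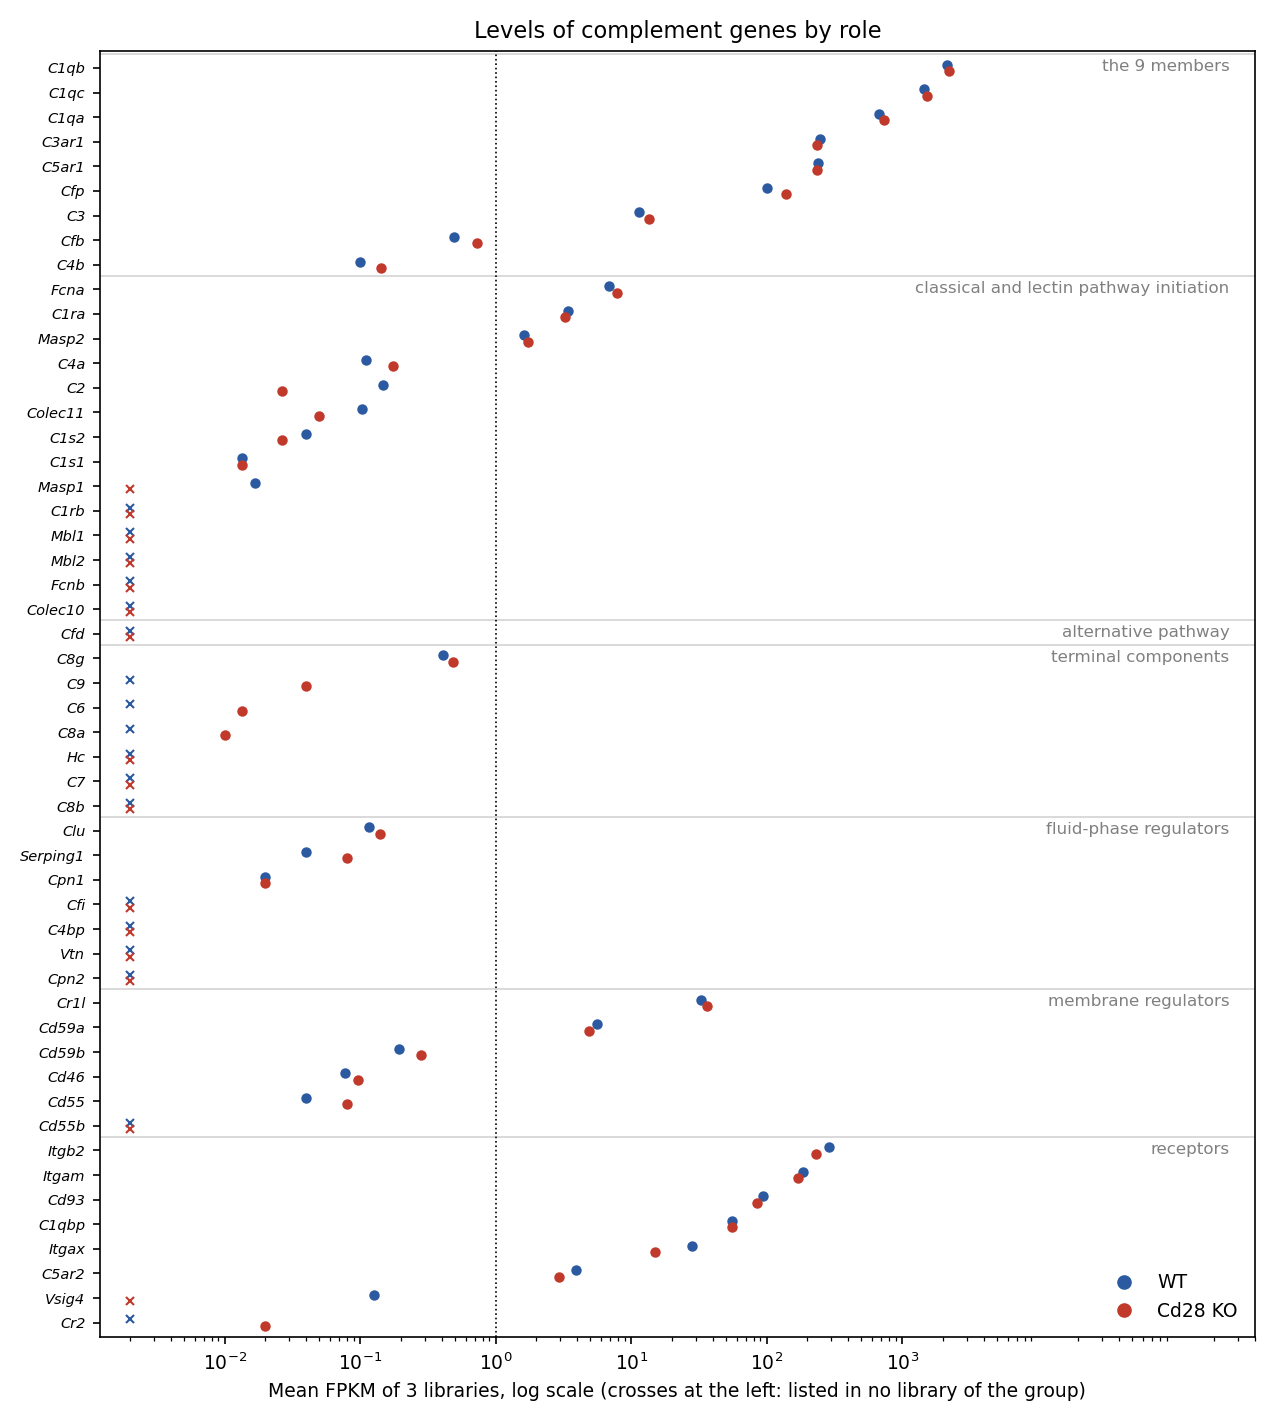
Mean FPKM on a log axis for the 9 members and 43 other complement genes, grouped by role, with 1 point for WT and 1 for Cd28 KO (mean of 3 libraries each), crosses for genes listed in no library of a group, and a dotted line at 1 FPKM. C1qb, C1qc and C1qa stand at the top, and the C1q-associated proteases, C4b, C2 and the terminal components stand below 5 FPKM or are not listed.

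No member passed limma's test between Cd28 KO and WT macrophages. Of the 9, 7 had a mean of at least 1 FPKM and entered the test over 10172 genes, and C4b and Cfb did not. Limma without a block called 0 of the 7 at a Benjamini-Hochberg adjusted p below 0.05 and listed 0 at an unadjusted p below 0.05, where it called 0.0197% of all tested genes and listed 2.49% unadjusted. With the replicate block it called 0 of the 7, against 0.177% of all tested genes, and listed 1 (Cfp) at an unadjusted p below 0.05, against 7.89%. The limma log2 difference of the 7, Cd28 KO minus WT on the log2(FPKM + 1) scale, had a median of 0.09 and was positive in 5, beside a median of 0.00 and 49.1% positive over all tested genes. The members' median was 0.03 on the TPM scale and -0.01 with quantile normalization, where 3 of the 7 (C1qa, C3 and Cfp) were positive. The groups overlapped in all 7, whereas 3.84% of tested genes were higher and 2.87% lower in Cd28 KO without overlap. Cd28, the targeted gene, was not called either. Its log2 difference was -0.59 ± 0.19 (SE), at a limma adjusted p of 0.9995, and 0.18 with the block. A gene left uncalled by these fits is therefore not shown to be unchanged. In bulk RNA, fewer cells of a type and less RNA per cell cannot be told apart.

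**Figure D2:**
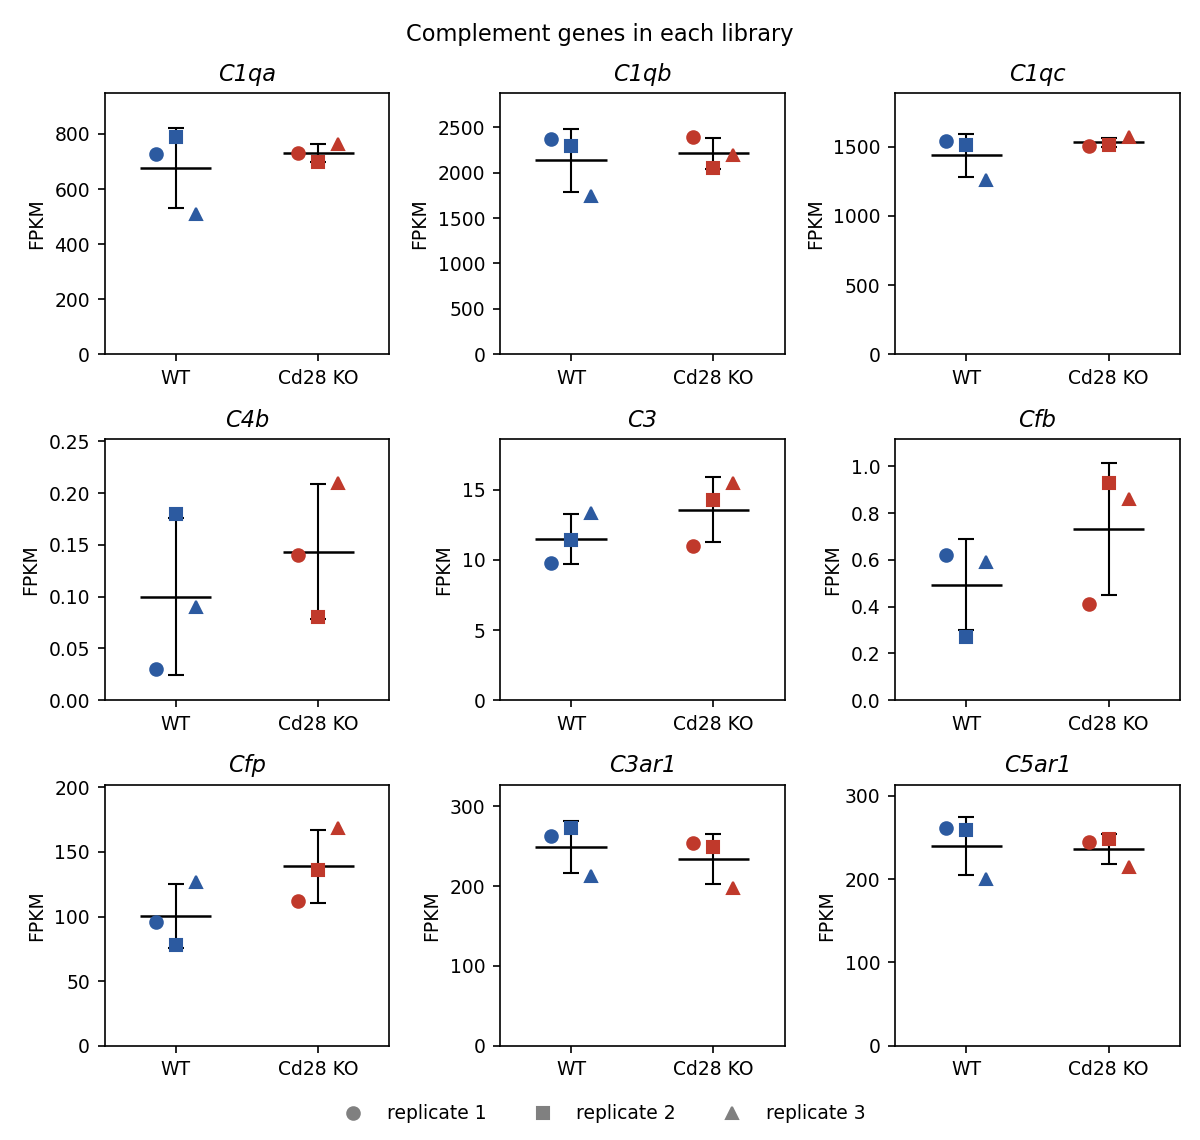
FPKM of each member in every library, on linear axes from 0, with circles, squares and triangles for replicates 1, 2 and 3, and the black bar and whiskers for the group mean ± SD (n = 3). WT replicate 3 is the lowest library for C1qa, C1qb and C1qc, and the triangles of both genotypes are low for C3ar1 and C5ar1 and high for Cfp and C3.

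C1qa, C1qb and C1qc encode the A, B and C chains that assemble into C1q, which binds antibody complexes and dying cells. Their genes lie within 18719 bases on chromosome 4 (136880126 to 136898844, GRCm38), in the order C1qb, C1qc, C1qa, with 3600 and 2979 bases between them. The nearest protein-coding genes on either side, Ephb2 and Epha8, did not exceed 0.03 FPKM in any library.

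C1qa stood at 732, 699 and 765 FPKM in Cd28 KO replicates 1 to 3 and at 727, 789 and 511 FPKM in WT. C1qb stood at 2391, 2051 and 2193 FPKM in Cd28 KO and at 2374, 2291 and 1737 FPKM in WT. C1qc stood at 1508, 1513 and 1570 FPKM in Cd28 KO and at 1541, 1515 and 1260 FPKM in WT. WT replicate 3 was the lowest of the 6 libraries for all of these genes, and the other 5 libraries of both genotypes lay close together. In WT, replicate 3 differed from the mean of replicates 1 and 2 by -32.7% for C1qa, -25.5% for C1qb and -17.5% for C1qc, while in Cd28 KO the replicate 3 library differed from the mean of its partners by 6.91%, -1.25% and 3.91%.

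The log2 difference was 0.14 ± 0.17 (SE) for C1qa, 0.06 ± 0.14 for C1qb and 0.09 ± 0.11 for C1qc, each with a limma adjusted p of 0.9995. The 95% confidence interval of the fold ran from 0.839 to 1.44 for C1qa, from 0.825 to 1.32 for C1qb and from 0.895 to 1.27 for C1qc, so a 2-fold change in either direction lay outside each interval. Without WT replicate 3 the log2 differences were -0.05, -0.08 and 0.00, and with quantile normalization they were 0.04, -0.02 and -0.01, so these data give no direction for the C1q genes. Within same-numbered pairs, C1qa was at 0.01, -0.18 and 0.58, C1qb at 0.01, -0.16 and 0.34, and C1qc at -0.03, 0.00 and 0.32, so the positive means came from the replicate 3 pair. Whether the replicate 3 pair differed from the others was not tested.

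Ratios between the chains do not depend on how a library is scaled. C1qb exceeded C1qa 3.02 ± 0.214-fold in Cd28 KO against 3.19 ± 0.257-fold in WT (SD, n = 3 per genotype; exact two-sided permutation p = 0.5), over a range of 2.87 to 3.40 in the 6 libraries. The ratio of C1qb to C1qc was 1.45 ± 0.123 in Cd28 KO and 1.48 ± 0.0867 in WT (exact two-sided permutation p = 0.9), and that of C1qc to C1qa was 2.09 ± 0.0636 and 2.17 ± 0.277 (exact p = 0.8). The 3 genes together made up 0.812% ± 0.0236 of the summed FPKM in Cd28 KO against 0.803% ± 0.101 in WT, with WT replicate 3 lowest at 0.687%.

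The partners that C1q needs to cut C4 and C2 were scarce beside it. C1ra, 1 of the mouse genes for the protease C1r, ranged over 2.89 to 3.50 FPKM in Cd28 KO against 3.22 to 3.59 FPKM in WT, while its copy C1rb was listed in no library. The protease genes C1s1 and C1s2 were listed in 2 and 3 libraries and did not exceed 0.08 FPKM. Serping1, the inhibitor of C1r and C1s, was listed in 5 libraries at no more than 0.12 FPKM.

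C4b encodes C4, whose cleavage by C1s or the lectin proteases leads to the C3 convertase of these routes. C4b stood at 0.14, 0.08 and 0.21 FPKM in Cd28 KO replicates 1 to 3 and at 0.03, 0.18 and 0.09 FPKM in WT. These values are near the lower end of the files (0.01 FPKM), the groups overlapped, and C4b shares most of its sequence with C4a, so its own value is uncertain. Both genes lie in the major histocompatibility region of chromosome 17, C4b at 34728139 to 34743902. C4a stood at 0.07 to 0.30 FPKM, and C2, the partner of C4 in the convertase, at 0.24 FPKM or less. Tested without a filter, C4b had a log2 difference of 0.06 ± 0.07 (SE), at a limma adjusted p of 1.

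C3 (chromosome 17, 57203967 to 57228136), the central component whose fragments opsonise targets, stood at 11.0, 14.3 and 15.5 FPKM in Cd28 KO replicates 1 to 3 and at 9.75, 11.4 and 13.4 FPKM in WT. Cd28 KO was higher in each same-numbered pair, as it was for 15.0% of all tested genes, but the groups overlapped. No label states this pairing, and the C3 pattern depends on it, because Cd28 KO replicate 1 lay below WT replicate 2. Mean FPKM was 13.6 ± 2.32 in Cd28 KO against 11.5 ± 1.80 in WT (SD, n = 3 per genotype). The log2 difference of C3 was 0.22 ± 0.18 (SE), with a 95% confidence interval from -0.19 to 0.63 and a limma adjusted p of 0.9995, and 0.67 with the block.

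Cfb (chromosome 17, 34856374 to 34862514) encodes factor B, the protease that pairs with C3b in the alternative convertase. It was low, at 0.41, 0.93 and 0.86 FPKM in Cd28 KO replicates 1 to 3 and 0.62, 0.27 and 0.59 FPKM in WT, with overlap between the groups. Without a filter its log2 difference was 0.21 ± 0.15 (SE), at a limma adjusted p of 1, and 0.85 with the block. Cfb ends 1 base from Nelfe, which stood at 25.8 to 32.7 FPKM, and 87 bases from C2, so reads near these borders could be assigned to either gene. Cfd, the protease that activates factor B, was listed in no library.

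Cfp (chromosome X, 20925454 to 20931555) encodes properdin, which stabilises the alternative convertase and is made by myeloid cells. Cfp stood at 112, 136 and 168 FPKM in Cd28 KO replicates 1 to 3 and at 95.9, 78.0 and 127 FPKM in WT. It had the largest log2 difference of the 7 tested members. Cd28 KO was higher in each same-numbered pair, as for 15.0% of all tested genes, at log2 differences of 0.22, 0.80 and 0.40. The groups overlapped, because WT replicate 3 lay above Cd28 KO replicate 1. Mean FPKM was 139 ± 28.2 in Cd28 KO against 100.2 ± 24.7 in WT (SD, n = 3 per genotype), a ratio of 1.38.

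The log2 difference of Cfp was 0.47 ± 0.21 (SE), with a 95% confidence interval from -0.02 to 0.97 and a limma adjusted p of 0.9995. With the replicate block the interval ran from 0.21 to 0.74, the unadjusted p was 0.0029, the 103rd smallest of 10172 genes, and the limma adjusted p was 0.29. Cfp did not pass the test in any of the 14 alternatives, in which its log2 difference ranged from 0.31 to 0.66 and its limma adjusted p from 0.13 to 1. The replicate 3 library was the highest of its group in both genotypes, 35.6% above the mean of replicates 1 and 2 in Cd28 KO and 45.9% above it in WT.

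Neutrophils also express Cfp. Of 9 neutrophil markers 8 were listed in at least 1 library, with a sum of 3.89 to 8.88 FPKM in Cd28 KO against 2.43 to 7.08 FPKM in WT, highest in replicate 3 of each. The granule and surface markers Camp, Elane and Ly6g were each listed in 1 library and Retnlg in none. Ngp, Ltf, S100a8 and S100a9 were listed in all 6. S100a9 stood at 2.31, 2.63 and 3.75 FPKM in Cd28 KO replicates 1 to 3 and at 1.09, 1.53 and 2.33 FPKM in WT. S100a8 stood at 2.41, 0.63 and 4.44 FPKM in Cd28 KO and at 0.94, 2.19 and 3.65 FPKM in WT. Ngp did not exceed 0.90 FPKM and Ltf 0.24 FPKM. The part of these markers in the Cfp values was not tested.

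By the root-mean-square difference of log2(FPKM + 1) deviations over the 6 libraries, the genes closest to Cfp among 7629 non-member genes of at least 5 FPKM were Irf7 (0.08), Lgals9 (0.09) and Ass1 (0.09). Irf7, a transcription factor of the interferon response, stood at 194, 208 and 258 FPKM in Cd28 KO and at 140, 126 and 205 FPKM in WT. Like Cfp it was higher in replicate 3 of each genotype and higher in Cd28 KO within each pair. That likeness follows from how Irf7 was picked and is no separate result. Cfp was the 1 member whose log2 values spanned at least 1, so no such genes are given for the others.

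C3ar1 (chromosome 6, 122847140 to 122856157) and C5ar1 (chromosome 7, 16246743 to 16259540) encode the G-protein coupled receptors for the anaphylatoxins, the small fragments cut from C3 and C5. C3ar1 stood at 254, 249 and 198 FPKM in Cd28 KO replicates 1 to 3 and at 262, 272 and 212 FPKM in WT. C5ar1 stood at 245, 249 and 215 FPKM in Cd28 KO and at 261, 259 and 199.6 FPKM in WT. The replicate 3 library of each genotype was the lowest of its group for both receptors. Against the mean of replicates 1 and 2 it differed by -21.3% (Cd28 KO) and -20.6% (WT) for C3ar1, and by -12.9% and -23.2% for C5ar1.

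C3ar1 was lower in Cd28 KO in each of the 3 same-numbered pairs, as were 13.3% of all tested genes, by a mean log2 difference of -0.09 ± 0.14 (SE), and C5ar1 had a difference of -0.01 ± 0.13. Both had a limma adjusted p of 0.9995, and the blocked fit gave adjusted p values of 0.89 and 0.99. The 95% confidence interval of the fold was 0.744 to 1.19 for C3ar1 and 0.798 to 1.23 for C5ar1. The sign turned without Cd28 KO replicate 3 for C3ar1 (0.02), and without Cd28 KO replicate 3, WT replicate 1 or WT replicate 2 for C5ar1 (0.05 in each). Without Cd28 KO replicate 3, the male library of WT remained alone, so that fit was unbalanced for sex. With a batch term for replicate 3 the differences of C3ar1 and C5ar1 were -0.09 and -0.01. In replicates 1 and 2 alone they were -0.09 and -0.07. The ratio of C3ar1 to C5ar1 was 0.987 ± 0.0589 in Cd28 KO against 1.04 ± 0.0301 in WT (SD, n = 3 per genotype; exact two-sided permutation p = 0.2).

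**Figure D3:**
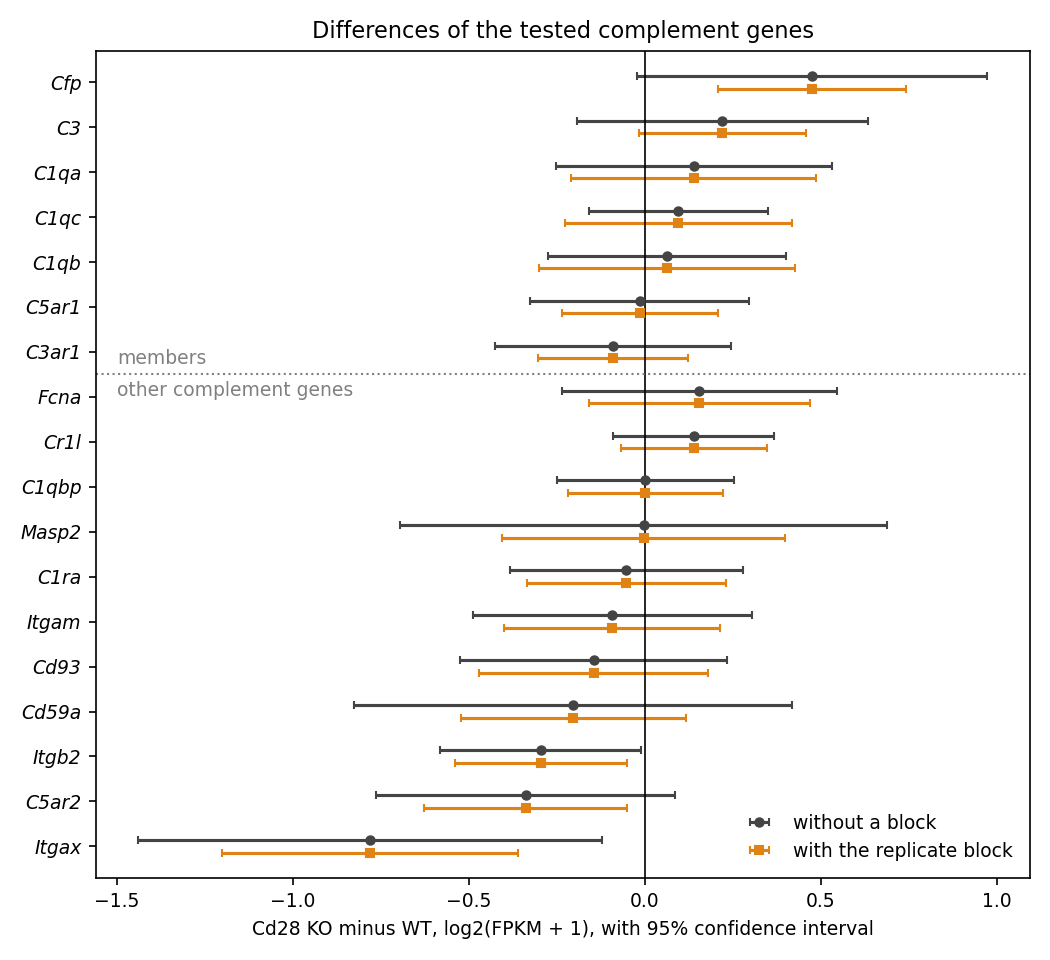
Log2 difference of Cd28 KO minus WT on the log2(FPKM + 1) scale for the 7 tested members and the 11 other tested complement genes, with 95% confidence intervals from limma without a block (circles) and with the replicate block (squares). Every member's interval without a block includes 0, and Cfp is the member farthest from 0, at 0.47.

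The rest of the complement system was taken from a list of 43 other genes. Of these 29 were listed in some library, 11 had a mean of at least 1 FPKM and were tested, and 14 were listed nowhere. Limma called 0 of the 11 higher and 0 lower, with or without the block, against 0.0197% of all tested genes without it and 0.177% with it. At an unadjusted p below 0.05 it listed 2 of the 11 without the block (Itgax and Itgb2), against 2.49% of all tested genes, and 3 with it (also C5ar2), against 7.89%. The median log2 difference of the 11 was -0.09, with 3 positive and 8 negative, beside a median of 0.00 and 49.1% positive over all tested genes.

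Of the lectin route, the pattern-recognition molecule ficolin A, from Fcna, ranged over 6.12 to 8.93 FPKM in Cd28 KO against 6.73 to 7.13 FPKM in WT, and its protease gene Masp2 at 0.70 to 2.77 and 1.27 to 1.89 FPKM. The mannose-binding lectin genes Mbl1 and Mbl2 were not listed. None of the 7 terminal components, which build the membrane attack pore, reached 1 FPKM: C8g was the highest at 0.27 to 0.71 FPKM, C6, C8a and C9 were listed in 1 library each, and Hc (which encodes C5), C7 and C8b in none.

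Among the regulators, Cr1l, which encodes the mouse C3 convertase inhibitor Crry, was the most abundant. Cr1l stood at 37.1, 35.2 and 36.2 FPKM in Cd28 KO and at 32.7, 31.2 and 34.5 FPKM in WT. Each Cd28 KO library thus lay above the WT libraries, as for 3.84% of all tested genes. Its log2 difference was 0.14 ± 0.10 (SE), at a limma adjusted p of 0.9995, and 0.79 with the block. Cr1l lies on chromosome 1 (195098711 to 195131570) and overlaps the end of Cd46. Cd28 is on the same chromosome, as are Cd46, Cd55, Cd55b, Cr2 and C4bp of the list, and no distance to Cd28 is given here. Cd59a, an inhibitor of the pore, ranged over 3.17 to 6.91 FPKM in Cd28 KO against 4.24 to 6.37 FPKM in WT. Of the fluid-phase regulators, Clu was at or below 0.18 FPKM and Cpn1 at or below 0.06 FPKM. Cd59b was at or below 0.44 FPKM.

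The most negative log2 difference of the list was that of Itgax, a chain of an integrin that binds cleaved C3. Itgb2 encodes the beta chain shared by complement receptor 3 (with Itgam) and complement receptor 4 (with Itgax). Itgax stood at 13.7, 15.7 and 15.7 FPKM in Cd28 KO replicates 1 to 3 and at 25.3, 41.5 and 17.7 FPKM in WT, and Itgb2 at 224, 238 and 235 FPKM against 269, 337 and 256 FPKM. For both genes every Cd28 KO library lay below the WT libraries, as for 2.87% of tested genes, but WT replicate 3 came closest to Cd28 KO.

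The log2 difference was -0.78 ± 0.28 (SE) for Itgax and -0.30 ± 0.12 for Itgb2, both at a limma adjusted p of 0.9995, and the blocked fit gave adjusted p values of 0.27 and 0.55. In replicates 1 and 2 alone limma called 71 of 10172 genes, against 2 with all 6 libraries and no block. Itgax was among the 71, at a log2 difference of -1.09 and a limma adjusted p of 0.0456. Over the 14 alternatives of Itgax the adjusted p ranged from there to 1. Without WT replicate 2, the library at 41.5 FPKM, the log2 difference of Itgax was -0.47 and that of Itgb2 -0.18. Itgam, the alpha chain of complement receptor 3, stood at 158, 190 and 166 FPKM in Cd28 KO and at 160, 161 and 235 FPKM in WT, and its log2 difference of -0.09 ± 0.17 turned to 0.09 without WT replicate 3. Itgax is also used as a marker of dendritic cells. All 7 dendritic cell markers were listed in at least 1 library with a sum of 3.86 to 5.95 FPKM in Cd28 KO against 3.10 to 5.85 FPKM in WT. Ccr7, at 0.86 to 2.60 FPKM over all libraries, and Siglech, at 0.94 to 2.33 FPKM, were the highest. Flt3 and Zbtb46 were at or below 0.18 FPKM. The part of these markers in the Itgax values was not tested.

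C5ar2, which encodes the other C5a receptor, lies 2588 bases from C5ar1 and stood far below it. It was at 3.03, 3.55 and 2.22 FPKM in Cd28 KO and 4.11, 4.31 and 3.40 FPKM in WT. As for 13.3% of all tested genes, it was lower in Cd28 KO in each pair, but the groups overlapped. Its log2 difference was -0.34 ± 0.18 (SE), at a limma adjusted p of 0.9995, and 0.55 with the block. Cd93, once described as a C1q receptor, ranged over 67.3 to 100.4 FPKM in Cd28 KO against 85.2 to 103 FPKM in WT, and C1qbp, a C1q-binding protein, at 50.05 to 61.6 and 55.2 to 56.3 FPKM. Vsig4, a C3b receptor of resident macrophages, was listed in 2 WT libraries at 0.23 and 0.15 FPKM, and Cr2 at 0.02 FPKM in each Cd28 KO library and in no WT library.

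Markers of hepatocytes and fibroblasts, which also make complement, were at the lower end of the files. Of the 7 hepatocyte markers whose symbols matched 3 were listed in some library, summing to at most 2.01 FPKM (Cd28 KO) and 1.40 FPKM (WT), and Alb was listed in none. The 8 stromal fibroblast markers summed to at most 0.65 and 0.38 FPKM. Of 6 endothelial markers 5 were listed in some library, summing to 4.71 to 9.96 FPKM in Cd28 KO against 4.82 to 17.96 FPKM in WT. Most of that sum was Kdr, highest in replicate 3 of each genotype at 9.57 FPKM (Cd28 KO) and 17.44 FPKM (WT), the WT library lowest for the C1q genes, while Cdh5 was at or below 0.15 FPKM and Emcn was listed in none. The part of these markers in the complement values was not tested.

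**Figure D4:**
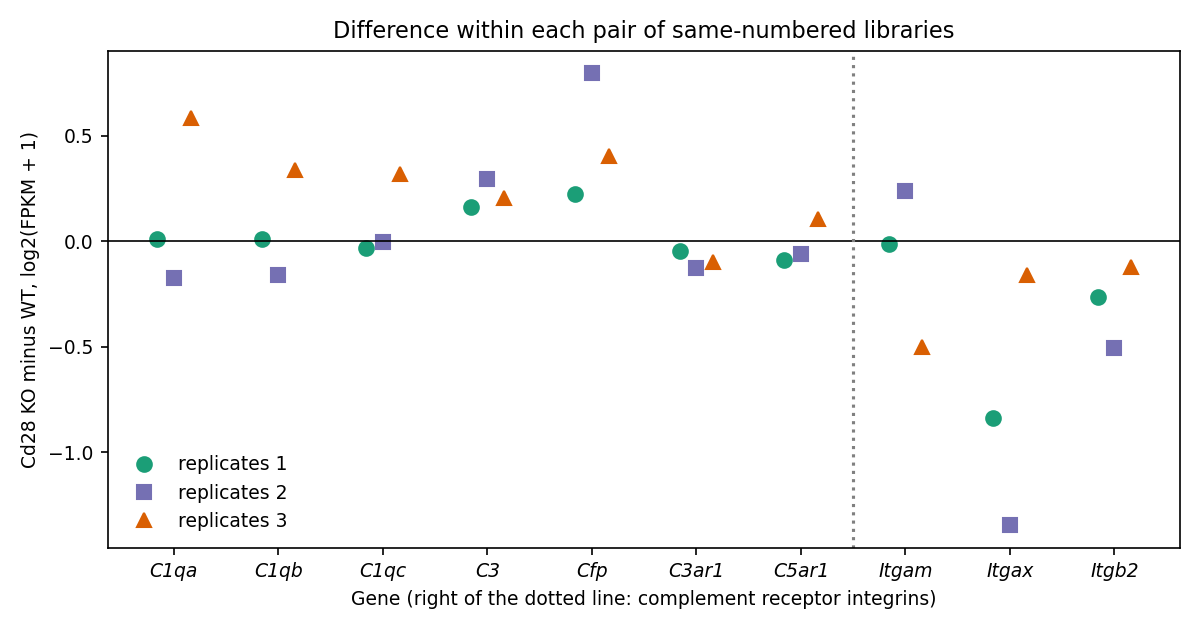
Log2 difference of Cd28 KO minus WT within each pair of same-numbered libraries, on the log2(FPKM + 1) scale, for the 7 tested members and, right of the dotted line, the chains of complement receptors 3 and 4 (circles, squares and triangles for replicates 1, 2 and 3). C3 and Cfp lie above 0 and C3ar1, Itgax and Itgb2 below 0 in all 3 pairs, while the C1q genes are at 0.32 to 0.58 in replicate 3 and at -0.18 to 0.01 in replicates 1 and 2. No label states the pairing, and the pairing of replicates 1 and 2 could not be told from the data.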

How the data were processed

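RNA from 3 Cd28 KO and 3 WT macrophage cultures was sequenced. The authors deposited FPKM, 1 value per gene and library, made with Bowtie and RSEM on GRCm38 per the submitters' processing notes. The sources used here give neither their versions nor the annotation or depth, so the precision of low values is unknown. RSEM splits reads between similar genes by estimation. Files listed values from 0.01 FPKM, and an absent gene was counted as 0. Of 14574 Entrez identifiers 14551 matched RefSeq (GRCm38.p6), the source of symbols, coordinates and promoters, and 1 hepatocyte marker symbol did not match and was not looked up.

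Genes averaging at least 1 FPKM were tested with limma 3.58.1 (R 4.3.3; empirical Bayes with trend) on log2(FPKM + 1), whose log2 differences understate changes of low genes, with Benjamini-Hochberg adjustment over all 10172 and 95% intervals. Single values used exact permutation tests (SciPy 1.17.1). The fits were tested on simulated data. Deviations of same-numbered libraries correlated at 0.752, 0.505 and 0.783 across genes, all above 0.1, so libraries were treated as paired by number, which no label states. Replicates 1 and 2 also correlated across numbers, at 0.535 and 0.663, so the correlations set replicate 3 apart but do not tell the pairing of 1 and 2. Alternatives were a pseudocount of 0.1, no filter, a minimum of 5 FPKM, the TPM scale, quantile normalization, the replicate block, a batch term for replicate 3, replicates 1 and 2 alone, and each library left out.

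The members and lists were chosen with earlier results of these data known. Named were all members, and of the other complement genes the 3 highest of each role and any without overlap; C5ar2, C1qbp, Vsig4 and the genes listed low or nowhere were named after their values were seen, as were the ratios and pairs. The interferon-type repeat was shortened to GAAANNGAA after a form with 1 more A at its end had matched none of the 6 promoters. One gene of the list of other complement genes is not reported here and was left out of that list's counts and figures, but not of the fit over all genes.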

Additional observations from a re-analysis of the deposited data

How the results depend on the processing

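None of the 7 tested members was called in any of 15 alternatives, among them the replicate block, and C4b and Cfb, tested only in the 2 without a filter, were not called there. The block changed no call among the complement genes. Of the other complement genes 1 was called (Itgax), in replicates 1 and 2 alone. Over all genes limma called 2, which became 5 without a filter, 18 with the replicate block, 28 with the batch term for replicate 3 and 71 in replicates 1 and 2 alone. The members' median log2 difference of 0.09 was -0.07 in replicates 1 and 2 alone, -0.01 with quantile normalization and 0.03 on the TPM scale, and ranged from -0.05 (without WT replicate 3) to 0.15 with a library left out. In replicates 1 and 2 alone the sign turned for C1qa (-0.08), C1qb (-0.07), C1qc (-0.02), Masp2 (0.20), Itgam (0.11) and Cd93 (0.09), and with quantile normalization for C1qb (-0.02) and C1qc (-0.01). With 1 library left out, log2 differences ranged from -0.05 to 0.26 for C1qa, -0.08 to 0.15 for C1qb, -0.20 to 0.02 for C3ar1, -0.14 to 0.05 for C5ar1, -0.10 to 0.01 for C1ra, -0.27 to 0.30 for Masp2, -0.44 to 0.02 for Cd59a, -0.19 to 0.09 for Itgam and -0.27 to 0.01 for Cd93, none of them called. C3, Cfp, Fcna, Cr1l, Itgb2, Itgax and C5ar2 kept their sign throughout, but with 1 library left out their log2 differences ranged from 0.12 (without Cd28 KO replicate 3 or WT replicate 1) to 0.35 (without Cd28 KO replicate 1) for C3, 0.31 (without WT replicate 2) to 0.66 for Cfp, 0.07 (without Cd28 KO replicate 1; 0.09 without replicate 2) to 0.31 (without Cd28 KO replicate 3) for Fcna, 0.10 to 0.17 for Cr1l, -0.38 to -0.18 (without WT replicate 2) for Itgb2, -1.06 to -0.47 (without WT replicate 2) for Itgax and -0.45 to -0.20 (without Cd28 KO replicate 3) for C5ar2. A fit without the replicate 3 library of either genotype kept the male library of the other, so it was unbalanced for sex. Where a value changed, the cause was not tested. The Cd28 difference of -14.2 FPKM ranged from -19.1 to -8.56 FPKM with a library left out. A fit with the block and no filter, added after the data were seen, called 3 genes and no member. Depth is unknown, so differences of C4b, Cfb and other genes below 1 FPKM could not be judged.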
